A study of Arabidopsis thaliana with 8 samples.

Results

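Histones package nuclear DNA, and the *ubp5* line lacks a protease that removes ubiquitin from one of them, H2A. The transcripts of 43 Arabidopsis histone genes were compared between *ubp5* and Col-0 seedlings. The set was taken by gene identifier and was chosen with earlier results of these data known. It comprises 13 H2A, 10 H2B, 9 H3, 8 H4 and 3 linker H1 genes out of the 37336 genes listed in each library. The *ubp5* seedlings carry a CRISPR/Cas9 deletion that removes part of both conserved domains of *UBP5* (UBIQUITIN SPECIFIC PROTEASE 5). This is a single line in the Col-0 background, and it was compared with Col-0 wild type. All seedlings were grown in long days on MS agar and collected whole 12 days after germination, with 4 biological replicates per genotype. Transcripts were measured by 3' RNA-seq, in which an oligo(dT) primer with a molecular tag marks the poly(A) end, so that each tagged molecule is counted once whatever the length of its transcript.

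A nucleosome holds pairs of H2A, H2B, H3 and H4, and H1 binds the DNA between nucleosomes. Plant histone messenger RNAs are polyadenylated, so an oligo(dT) primer captures them. Canonical H2A, H3.1 and most H4 are made chiefly when DNA is replicated. The canonical H2A and H3.1 genes and all 8 H4 genes, which were not split further, are called replication-dependent here. Replacement variants, here H2A.X, H2A.Z, H2A.W and H3.3, are put into chromatin also outside of replication. H2A.X is phosphorylated at DNA breaks and H2A.Z occupies the starts of many genes. H2A.W marks heterochromatin and H3.3 replaces H3.1 in transcribed genes. CENH3 (HTR12) marks centromeres and, like H2B and H1, was put in neither group. Polycomb repressive complex 1 attaches ubiquitin to H2A, and the protease family to which UBP5 belongs takes it off, so that these genes encode the substrate itself.

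The H2A proteins differ most at their ends, and the last 45 coding bases before the stop codon are printed for 5 H2A genes because the 2 genes with the clearest decrease among them, *HTA5* and *HTA12*, carry different end motifs. Capitals mark the codons for serine, glutamine, glutamate and phenylalanine that end H2A.X, and those for serine, proline, lysine and lysine near the end of H2A.W. Canonical *HTA10* and the H2A.Z gene *HTA9* have neither. The sequences are from the TAIR10.1 genome with the RefSeq annotation, 5′ to 3′ on the coding strand.
HTA5 (H2A.X, chr1:2847147-2847191, minus strand): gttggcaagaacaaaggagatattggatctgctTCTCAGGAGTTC
HTA3 (H2A.X, chr1:20414610-20414654, minus strand): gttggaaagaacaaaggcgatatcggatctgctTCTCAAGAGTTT
HTA12 (H2A.W, chr5:576409-576453, plus strand): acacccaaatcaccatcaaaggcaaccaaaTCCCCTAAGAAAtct
HTA10 (canonical, chr1:18927396-18927440, plus strand): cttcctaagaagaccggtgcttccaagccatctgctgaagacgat
HTA9 (H2A.Z, chr1:19646174-19646218, plus strand): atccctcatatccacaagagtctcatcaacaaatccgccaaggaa

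The 250 bases before each gene's start were searched on both strands for short elements known from plant histone promoters. The octamer CGCGGATC occurred before 10 of the 43 histone genes (23.3%), against 37 of all 27443 nuclear protein-coding genes (0.135%). It was found before 7 of 17 replication-dependent genes (41.2%), among them 3 of 5 H3.1 genes, 2 of 4 canonical H2A genes and 2 of 8 H4 genes, and before none of the 10 H2B genes. The other 3 genes with a match were *HTA6*, *HTR5* and *H1.1*. Windows with the octamer in capitals are shown for 3 replication-dependent genes and for *H1.1* and *HTR5*, the only genes with a match whose transcripts changed. The first base of the octamer lay 126 bases before the gene start in *HTR1*, 120 in *HTR9* and 71 in the H4 gene AT5G59690. It lay 28 bases before it in *H1.1* and 17 in *HTR5*, in both in the reverse orientation. Genes that did not pass had such matches too. A reverse octamer began 10 bases before the start of *HTA10* and 68 before that of *HTA13*, and a forward one 19 before that of *HTR2*.
HTR1 (H3.1, chr5:26120684-26120723, minus strand): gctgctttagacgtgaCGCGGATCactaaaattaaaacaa
HTR9 (H3.1, chr5:3271054-3271093, minus strand): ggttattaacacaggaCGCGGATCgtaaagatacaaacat
AT5G59690 (H4, chr5:24051387-24051426, plus strand): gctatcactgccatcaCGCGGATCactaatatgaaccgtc
H1.1 (H1, chr1:2077772-2077811, minus strand): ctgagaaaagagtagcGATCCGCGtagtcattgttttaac
HTR5 (H3.3, chr4:18558946-18558978, minus strand): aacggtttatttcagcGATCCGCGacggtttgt

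H2B genes carried a different element. The hexamer ACGTCA occurred before 8 of 10 H2B genes (80%), against 2110 of the 27443 promoters (7.69%), and the exceptions were *HTB4* and *HTB7*. In 4 of these 8 genes, and in the H3.3 gene *HTR8*, it was followed by the same 6 bases, giving ACGTCATCGATC, a word chosen after the windows were seen. That word occurred in 5 of the 43 histone promoters and in 7 of all 27443 promoters (0.0255%). Windows are shown with the hexamer in capitals for *HTB5*, the H2B gene whose transcript fell, and for *HTB9* and *HTB6*, which did not pass the test.
HTB5 (chr2:15736663-15736700, plus strand): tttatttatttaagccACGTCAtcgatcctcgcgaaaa
HTB9 (chr3:16898148-16898185, minus strand): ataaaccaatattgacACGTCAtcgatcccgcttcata
HTB6 (chr3:19889185-19889222, plus strand): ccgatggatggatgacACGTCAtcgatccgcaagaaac

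Of the E2F words TTTCCCGC and TTTGGCGC only TTTGGCGC was found, before 2 H4 genes, AT3G45930 and AT3G46320. Their 250-base windows differ at only 3 positions. At least 1 of the E2F words was in 263 of all promoters (0.958%). The telobox AAACCCTA was before none of the 43 genes and 4.49% of all, and GAGAGAGA before *HTR12* alone and 4.91% of all. The study searched a wider window that reached past the transcription start. Matches at or beyond the gene start are not counted here. Matches of different words did not overlap in the histone promoters. A match is a description of the letters and not a measured binding site. Of the 10 genes with an octamer 2 were lower in *ubp5* and none was higher, and of the 29 tested genes without it 4 were lower and 2 higher. Among all genes tested 6.34% were lower and 4.59% higher at the same threshold. A link between the octamer and the changes was not tested.

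Total counts ranged from 1440510 to 2595285 in *ubp5* libraries and from 2572842 to 2997743 in Col-0 libraries, and levels are given as CPM, counts scaled to a common library size after TMM adjustment. *UBP5* (AT2G40930) itself had 14, 13, 6 and 16 counts in *ubp5* and 47, 57, 32 and 51 counts in Col-0, a log2 fold change of -1.53 ± 0.25 (SE, adjusted p = 0.00236). The counts come from the 3' end of the transcript, and whether that end lies inside the deletion was not tested. The first principal component separated the genotypes (44.4% of the variance), and Col-0 replicate 1 stood apart from the other 7 libraries on the second (15.6%). The leaf markers were abundant in all libraries and the root markers were low, and the labels give whole seedlings. Summed over the 6 leaf markers, the level was 28402 to 31355 CPM in *ubp5* and 32704 to 47130 CPM in Col-0, and 3 of them were lower in *ubp5* (*RBCS1A*, *CAB2* and *RCA*). Summed over the 10 root markers it was 63.8 to 102 CPM in *ubp5* and 83.1 to 109 CPM in Col-0, none of the 5 tested passed, and the part of tissue composition in the histone results was not tested. In whole seedlings, fewer cells of a kind and less RNA per cell cannot be told apart.

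Of the 43 histone genes, 39 had enough counts to be tested, and 38 of these had at least 10 counts in every library. A gene passed when its adjusted p from edgeR was under 0.05 over all 15649 genes tested. In *ubp5*, 2 histone genes were higher (*H1.3* and *HTB4*) and 6 were lower (*H1.1*, *HTA5*, *HTA12*, *HTB5*, *HTR5* and the H4 gene AT3G53730). Among all genes tested 4.59% were higher and 6.34% lower. With a log2 fold change of at least 1 as well, only *HTA12* remained, lower in *ubp5*, against 1.91% of all genes higher and 2.93% lower. The 4 *ubp5* values lay above the 4 Col-0 values for 3 tested histone genes (7.87% of all genes) and below them for 7 (9.37%). The median log2 fold change of the 39 genes was -0.01, the same as the median of all genes, and 27 of the 39 differed by less than 0.3 in either direction. Summed over all 43 genes, histone transcripts were 3228 ± 196 CPM in *ubp5* and 3541 ± 234 CPM in Col-0 (SD, n = 4 each), and the groups overlapped.

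**Figure D1:**
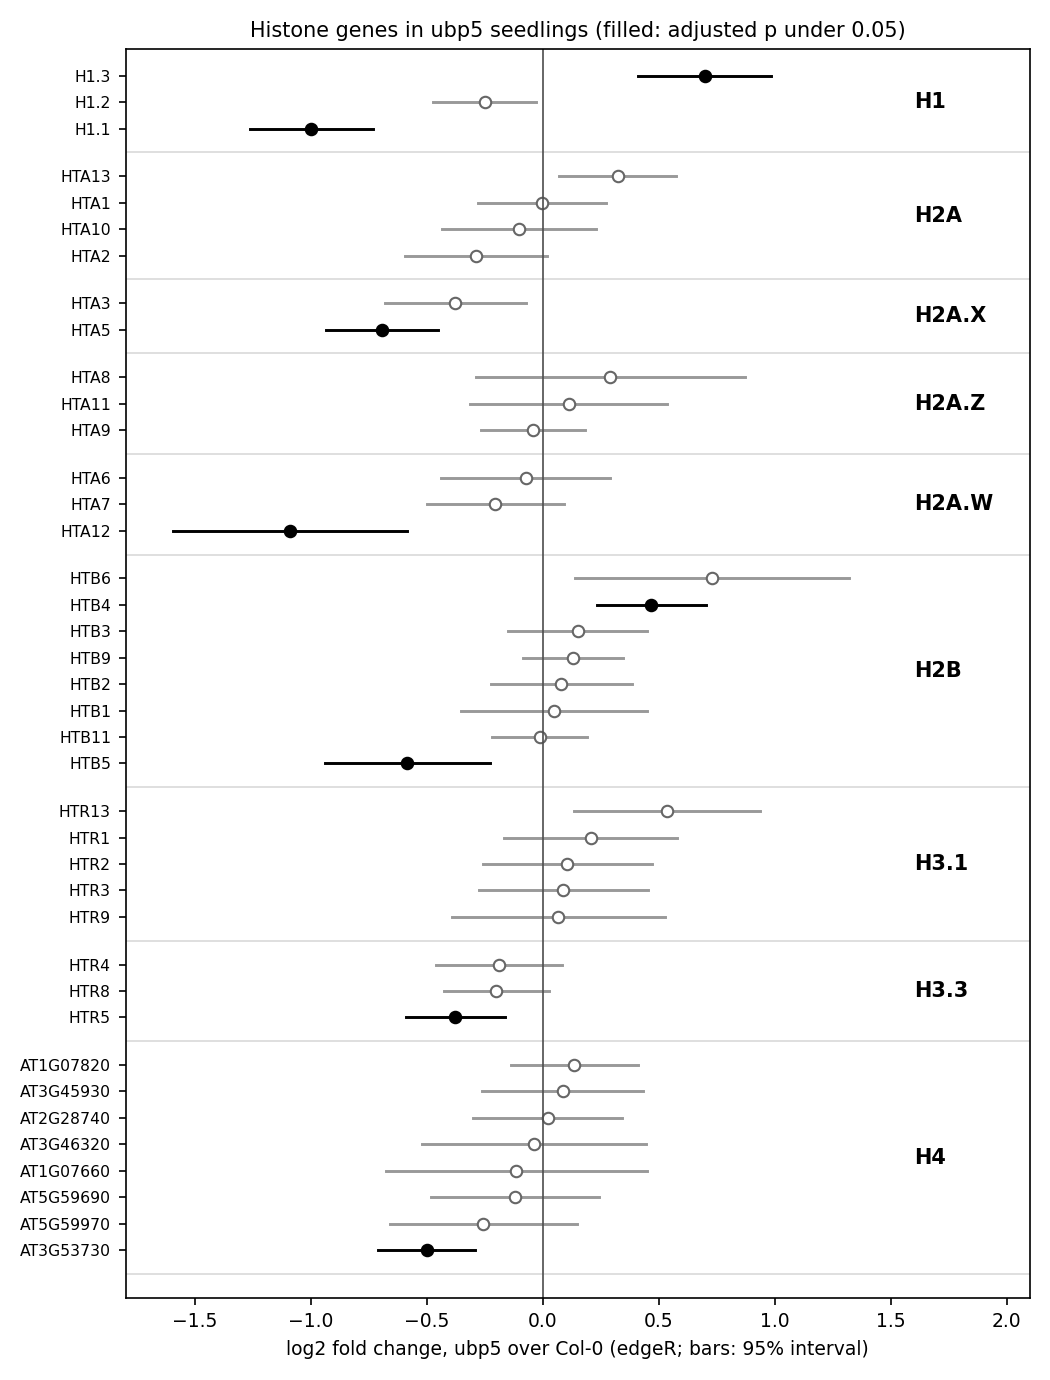
The log2 fold change of *ubp5* over Col-0 (x axis) for the 39 tested histone genes (y axis), grouped by subclass, with 95% intervals from edgeR; filled points passed the adjusted p threshold. Most intervals span 0, *H1.1* and *HTA12* lie farthest to the left at -0.998 and -1.09, and *H1.3* is the highest of the filled points at 0.70.

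The linker histones showed changes in opposite directions within a family of 3 genes. *H1.1* (AT1G06760, chr1:2076504-2077767), which with *H1.2* forms the pair of main linker histones, had 129.6, 105, 139 and 115 CPM in *ubp5* and 278, 221, 219 and 255 CPM in Col-0. Every *ubp5* library was below every Col-0 library, and the level was 0.501 times that of Col-0, a log2 fold change of -0.998 ± 0.12 (SE, n = 4 each, adjusted p = 0.000311). A noncoding RNA gene overlaps *H1.1* on the opposite strand over 484 bases, and counts were made on the sense strand. *H1.2* (AT2G30620) had 122, 121, 118 and 135 CPM in *ubp5* and 156, 136, 138 and 162 CPM in Col-0. Its groups did not overlap either, but the log2 fold change of -0.25 (95% interval -0.48 to -0.03) did not pass (adjusted p = 0.146).

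*H1.3* (HIS1-3, AT2G18050, chr2:7845923-7847031), a shorter linker histone known for its induction by drought, had 98.5, 89.0, 86.6 and 108 CPM in *ubp5* and 47.1, 66.3, 67.0 and 55.5 CPM in Col-0. All *ubp5* libraries were above all Col-0 libraries, with a log2 fold change of 0.70 ± 0.13 (SE, adjusted p = 0.00548), 1.62 times the Col-0 level. The RefSeq models encode 167 amino acids for *H1.3*, 274 for *H1.1* and 273 for *H1.2*. The make-up of the H1 transcripts therefore differed between genotypes. *H1.1* made up 35.7% ± 3.77 of H1 counts in *ubp5* and 53.9% ± 2.75 in Col-0, *H1.2* made up 36.3% ± 2.08 in *ubp5* and 32.8% ± 0.953 in Col-0, and *H1.3* made up 27.9% ± 1.99 in *ubp5* and 13.2% ± 2.97 in Col-0 (SD, n = 4 each). None of the 3 shares overlapped between genotypes, though for *H1.2* the lowest *ubp5* share (34.3%) was barely above the highest Col-0 share (34.2%). The 3 genes summed to 342 ± 18.3 CPM in *ubp5* and 450.2 ± 30.7 CPM in Col-0, with no overlap.

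**Figure D2:**
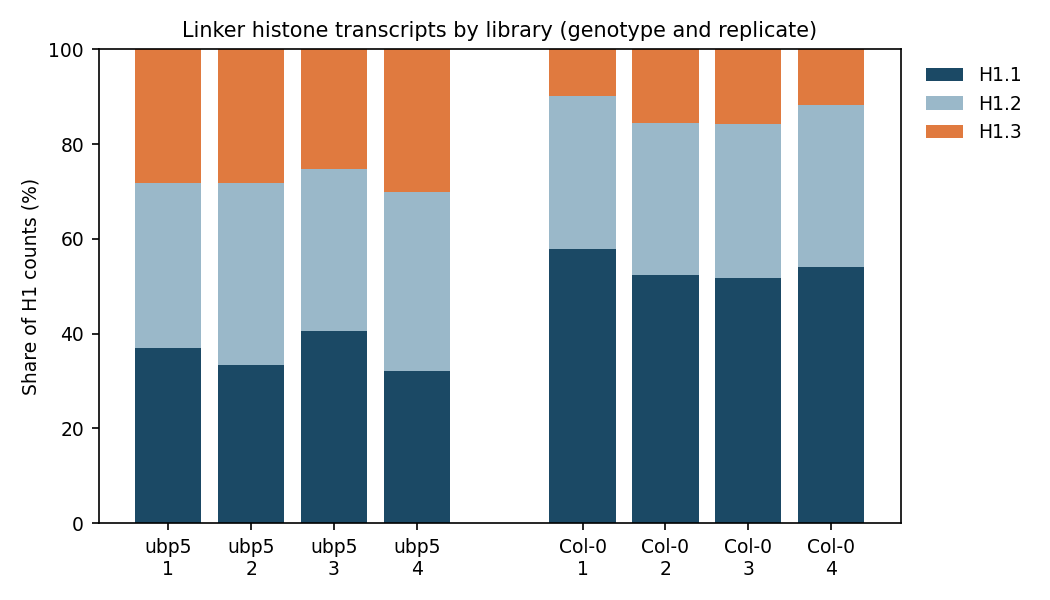
Share of H1 counts (y axis, %) taken by *H1.1*, *H1.2* and *H1.3* in each of the 4 *ubp5* and 4 Col-0 libraries (x axis). *H1.1* takes 32.1% to 40.5% in *ubp5* and 51.6% to 57.8% in Col-0, while *H1.3* takes 25.3% to 30.1% in *ubp5* and 9.79% to 15.8% in Col-0.

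Among the H2A genes 2 of 12 tested were lower in *ubp5* and none was higher. The shares over all genes tested were 6.34% lower and 4.59% higher. The median log2 fold change of the H2A genes was -0.09, and a decrease was clearest for H2A.X. *HTA5* (AT1G08880, chr1:2846894-2848100) had 63.8, 65.3, 54.9 and 67.0 CPM in *ubp5* and 110.1, 105, 89.2 and 103 CPM in Col-0. The groups were well apart, with a log2 fold change of -0.69 ± 0.11 (SE, adjusted p = 0.00191) and a level 0.618 times that of Col-0. The second H2A.X gene, *HTA3* (AT1G54690), had 25.5, 28.3, 31.0 and 28.1 CPM in *ubp5* and 33.8, 31.0, 37.6 and 43.5 CPM in Col-0. Its highest *ubp5* value met the lowest Col-0 value, and the log2 fold change of -0.38 (95% interval -0.68 to -0.07) did not pass (adjusted p = 0.109). Together the 2 genes held 15.8% ± 1.13 of H2A counts in *ubp5* and 21.4% ± 1.47 in Col-0, without overlap.

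H2A.W contributed the largest relative decrease at a low level. *HTA12* (AT5G02560, chr5:575225-577216) had 7.65, 4.20, 9.16 and 8.60 CPM in *ubp5* and 13.7, 15.1, 15.8 and 16.7 CPM in Col-0. In counts these were 15, 11, 13 and 19 in *ubp5* against 36, 38, 42 and 50 in Col-0, so that counting error is sizeable. The log2 fold change was -1.09 ± 0.23 (SE, adjusted p = 0.0106). *HTA12* shares 522 bases with the H2B gene *HTB10* on the opposite strand. The other H2A.W genes were the abundant ones. *HTA6* (AT5G59870), the highest of them on average over the 8 libraries, had 54.1, 63.4, 52.8 and 73.3 CPM in *ubp5* and 55.4, 72.6, 48.9 and 80.6 CPM in Col-0, and *HTA7* (AT5G27670) had a log2 fold change of -0.21 (adjusted p = 0.377). Both overlapped between genotypes, so that *HTA12*, the least abundant of the 3, was the H2A.W gene that passed.

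H2A.Z and canonical H2A showed no gene that passed. *HTA9* (AT1G52740), the main H2A.Z gene with 81.4% ± 1.53 of H2A.Z counts in *ubp5* and 83.8% ± 4.45 in Col-0, had 145, 164, 179 and 161 CPM in *ubp5* and 162, 184, 164 and 157 CPM in Col-0. The values interleaved, and the 95% interval of its log2 fold change ran from -0.27 to 0.18. *HTA8* and *HTA11* had log2 fold changes of 0.29 and 0.11, and in both the lowest Col-0 value was that of replicate 1, the library that stood apart (5.31 and 15.6 CPM). Without it the estimates were 0.09 for *HTA8* and -0.03 for *HTA11*. *HTA4* had 0 counts in all 8 libraries, which allows a level of up to 1.00 to 2.11 CPM per library at 3 counts.

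The canonical gene of highest mean, *HTA10* (AT1G51060), had 44.9, 44.7, 46.5 and 59.7 CPM in *ubp5* and 48.2, 55.2, 42.1 and 64.9 CPM in Col-0, with complete overlap. *HTA13* (AT3G20670) was the only canonical gene whose groups did not overlap, with 41.3, 40.9, 44.4 and 49.3 CPM in *ubp5* and 37.6, 36.1, 33.1 and 33.8 CPM in Col-0. Its log2 fold change of 0.32 (95% interval 0.07 to 0.58) did not pass (adjusted p = 0.10). *HTA2* had a log2 fold change of -0.29 and *HTA1* one of -0.00, so the 4 canonical genes spread to either side of 0.

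The H2B genes contained 1 higher and 1 lower gene among 8 tested, against 4.59% higher and 6.34% lower among all genes tested. *HTB4* (AT5G59910, chr5:24126877-24128162) had 182, 225, 212 and 230.4 CPM in *ubp5* and 146, 167, 142 and 159 CPM in Col-0. The lowest *ubp5* value was above the highest Col-0 value, with a log2 fold change of 0.47 ± 0.11 (SE, adjusted p = 0.0161). Without *ubp5* replicate 4 the gene no longer passed (adjusted p = 0.0558). Its share of H2B counts was 28.6% ± 1.55 in *ubp5* and 23.1% ± 0.37 in Col-0, without overlap. The gene is 1 of the 2 H2B genes with no hexamer in the 250 bases searched, and a link between the hexamer and the changes was not tested.

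*HTB5* (AT2G37470, chr2:15736727-15737728) had 27.0, 27.5, 32.4 and 24.9 CPM in *ubp5* and 35.7, 41.7, 34.6 and 54.2 CPM in Col-0. The gap between the groups was narrow and Col-0 replicate 4 was high. The log2 fold change was -0.58 ± 0.16 (SE, adjusted p = 0.0396), and the gene passed in only 6 of 14 alternative analyses, with a highest adjusted p of 0.116. It did not pass without any 1 of Col-0 replicates 2 and 4 or of the 4 *ubp5* libraries, and its log2 fold change lay between -0.66 and -0.43 in all 14.

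*HTB9* (AT3G45980), a main H2B gene, had 207, 213, 221 and 207 CPM in *ubp5* and 187, 219.9, 184 and 183 CPM in Col-0, where replicate 2 alone reached the *ubp5* range. Its log2 fold change of 0.13 (95% interval -0.08 to 0.35) did not pass. *HTB11* (AT3G46030) had the narrowest interval of all tested histone genes, -0.22 to 0.19 around -0.01. *HTB6* had the largest positive estimate of all 39, 0.73, at only 6.65 ± 1.32 CPM in *ubp5* and 4.04 ± 0.913 CPM in Col-0, and did not pass (adjusted p = 0.111). *HTB7* and *HTB10* were below the test's count filter, at mean levels of 3.60 and 1.73 CPM in *ubp5* and 3.48 and 1.15 CPM in Col-0.

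With all 8 libraries the H3 genes separated by type in sign, and 1 of the 8 tested, an H3.3 gene, passed, lower. Over all genes tested the share that was lower was 6.34%. The difference between the types was not tested. All 5 H3.1 genes had positive log2 fold changes, between 0.07 and 0.54, and none passed. Without Col-0 replicate 3 only 3 of the 5 were positive. *HTR2* (AT1G09200), the highest of them, had 74.5, 83.3, 74.0 and 94.1 CPM in *ubp5* and 62.6, 88.5, 56.4 and 96.0 CPM in Col-0. The Col-0 range enclosed the *ubp5* range, and the 95% interval ran from -0.26 to 0.47. *HTR13* (AT5G10390) had the largest estimate, 0.54 (95% interval 0.13 to 0.94, adjusted p = 0.0865), with 31.1, 30.9, 23.9 and 38.9 CPM in *ubp5* and 18.2, 27.0, 17.3 and 24.4 CPM in Col-0. *HTR3* shares 328 bases with a gene on the same strand, AT3G27380, so its counts are uncertain.

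All 3 H3.3 genes had negative log2 fold changes, also in each of the 14 alternative analyses, and 1 passed. *HTR5* (AT4G40040, chr4:18557149-18558945), the most abundant histone gene of the 43 in both genotypes, had 346, 359.9, 411 and 402 CPM in *ubp5* and 502, 508, 489 and 475 CPM in Col-0. The groups did not overlap, and the log2 fold change was -0.38 ± 0.10 (SE, adjusted p = 0.0281). The gene passed in 8 of 14 alternative analyses with a highest adjusted p of 0.0885, and did not pass without any 1 of Col-0 replicates 2 and 3 or *ubp5* replicates 1, 2 and 4. Its neighbour *HTR4* (AT4G40030) and *HTR8* (AT5G10980) had log2 fold changes of -0.19 and -0.20 and did not pass. H3.3 made up 78.2% ± 1.94 of H3 counts in *ubp5* and 82.9% ± 3.00 in Col-0, and H3.1 made up 21.6% ± 1.88 in *ubp5* and 16.8% ± 2.98 in Col-0, with overlap in each case. CENH3, *HTR12* (AT1G01370), had 1.02, 4.58, 2.82 and 1.81 CPM in *ubp5* and 4.17, 3.18, 3.01 and 4.68 CPM in Col-0, below the count filter of the test.

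The 8 H4 genes encode proteins of the same length, 103 amino acids in the RefSeq models. All 8 were tested and 1 passed, lower, where 6.34% of all genes tested were lower. AT3G53730 (chr3:19912385-19913515), the most abundant, had 95.4, 95.1, 90.2 and 92.8 CPM in *ubp5* and 144, 129, 122 and 134 CPM in Col-0. The 4 *ubp5* values lay close together and below all Col-0 values, with a log2 fold change of -0.50 ± 0.10 (SE, adjusted p = 0.00606). The other 7 had log2 fold changes between -0.26 and 0.14, and none had an adjusted p under 0.425. AT3G53730 held 26.5% ± 1.98 of H4 counts in *ubp5* and 33.7% ± 4.14 in Col-0. Stretches of 55 bases in the last 500 transcript bases that recur elsewhere in the genome made up 9.19% to 33.0% of 5 H4 genes, which makes their counts less certain, and 0% of AT3G53730. No tested or untested histone gene had such a repeat in the 150 windows nearest its end.

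**Figure D3:**
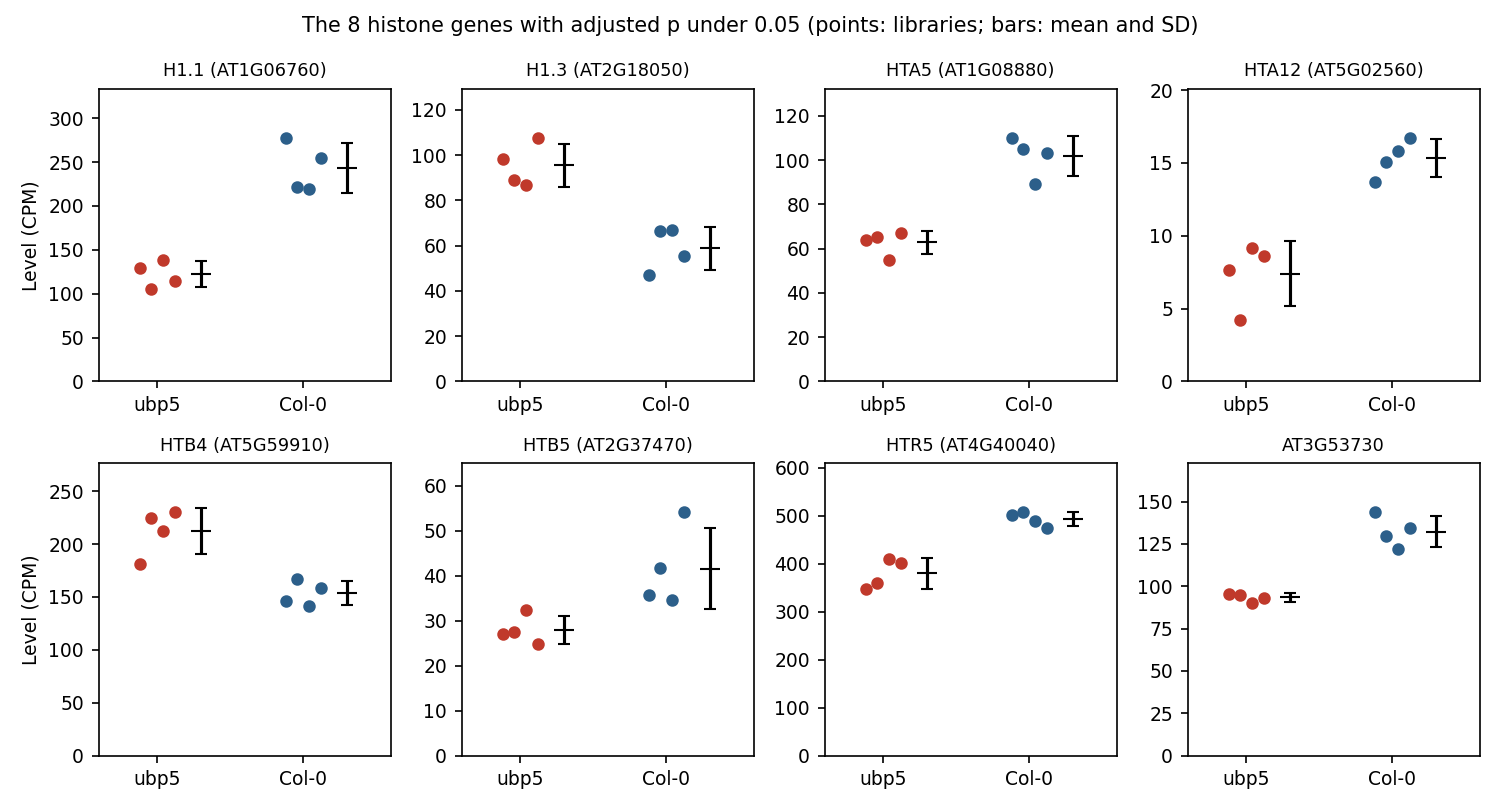
Levels (y axis, CPM) of the 8 histone genes that passed the test in each *ubp5* (red, left) and Col-0 (blue, right) library, with mean and SD beside the points. In none of the 8 do the groups overlap, which selection by a test on the same libraries favours. Of all genes tested, 7.87% had *ubp5* above Col-0 without overlap and 9.37% below. *HTB5* shows the smallest gap, from 32.4 CPM in *ubp5* to 34.6 CPM in Col-0.

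Grouped by mode, the 17 replication-dependent genes (canonical H2A, H3.1 and H4) had a median log2 fold change of 0.02, with 9 positive and 8 negative values, and 1 passed, lower. The 12 replacement variants (H2A.X, H2A.Z, H2A.W and H3.3) had 11 tested genes with a median of -0.20, with 2 positive and 9 negative values, and 3 passed, all lower. The median of all tested genes was -0.01, and 4.59% of them were higher and 6.34% lower. The summed level of replication-dependent genes was 698, 817, 754 and 842 CPM in *ubp5* and 728, 868, 677 and 902 CPM in Col-0, with full overlap. That of the replacement variants was 1229, 1334, 1441 and 1455 CPM in *ubp5* and 1588, 1754, 1545 and 1630.3 CPM in Col-0, without overlap. H3.3 made up most of the second sum, at 949.7 ± 82.1 CPM in *ubp5* and 1146 ± 60.3 CPM in Col-0 (SD, n = 4 each). These sums share libraries and are a description, and the difference between the modes was not tested. By class, the summed levels of H2A, H2B, H3 and H4 overlapped between genotypes and only those of H1 did not.

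**Figure D4:**
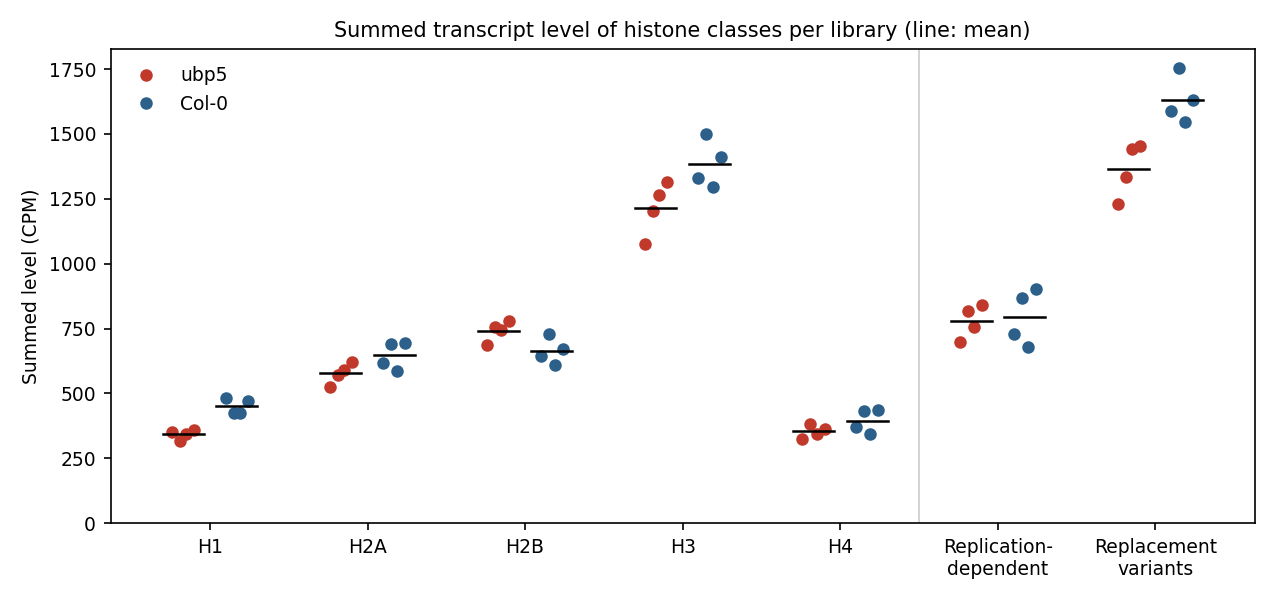
Summed level (y axis, CPM) of the 5 histone classes and of the replication-dependent and replacement groups in each *ubp5* (red, left) and Col-0 (blue, right) library, with lines at the means. H1 and the replacement variants are lower in *ubp5* without overlap (342 and 1365 CPM in *ubp5*, 450.2 and 1629 CPM in Col-0), while the replication-dependent genes overlap (778 CPM in *ubp5*, 794 CPM in Col-0).

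Genes that act with histones were read from lists of known genes. Among all genes tested 4.59% were higher and 6.34% lower, with a median log2 fold change of -0.01. Of 17 genes for DNA replication, which is when replication-dependent histones are made, 15 were tested. Of these 2 were higher in *ubp5* and none was lower, with a median log2 fold change of 0.51. *TSO2* and *RNR1*, subunits of the ribonucleotide reductase that makes deoxynucleotides, had log2 fold changes of 0.72 (adjusted p = 0.0115) and 0.64 (adjusted p = 0.00901). *RNR1* was at 44.4 ± 3.02 CPM in *ubp5* and 28.4 ± 4.19 CPM in Col-0 (SD, n = 4 each), without overlap. The replication-dependent histone genes had a median of 0.02 in the same libraries, and the difference between these lists was not tested. Of 12 mitosis genes 8 were tested and 1 was lower, *CDKB2;2*, a kinase of the G2 to M transition, with a log2 fold change of -0.99 (adjusted p = 0.0318), and their median was -0.28.

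Of 18 histone chaperone genes, whose products escort histones to DNA, 16 were tested and only *NRP1* passed, with 61.2, 68.4, 71.1 and 60.2 CPM in *ubp5* and 42.5, 47.2, 46.3 and 50.8 CPM in Col-0. Its product binds H2A and H2B, and its log2 fold change was 0.48 ± 0.11 (SE, adjusted p = 0.0161). The median of the chaperones was -0.08, with 7 positive and 9 negative values, and 4.59% of all genes tested were higher. Their summed level was 495.9 to 524.5 CPM in *ubp5* and 462.6 to 485.3 CPM in Col-0, without overlap. None of the 7 tested genes for the exchange of H2A.Z passed (median 0.06), and their summed levels overlapped between genotypes. None of the 8 tested genes for the attachment or removal of ubiquitin on H2B passed (median 0.17). These 8 summed to 505.5 to 583.2 CPM in *ubp5* and 460.6 to 504.9 CPM in Col-0, a narrow gap.

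**Figure D5:**
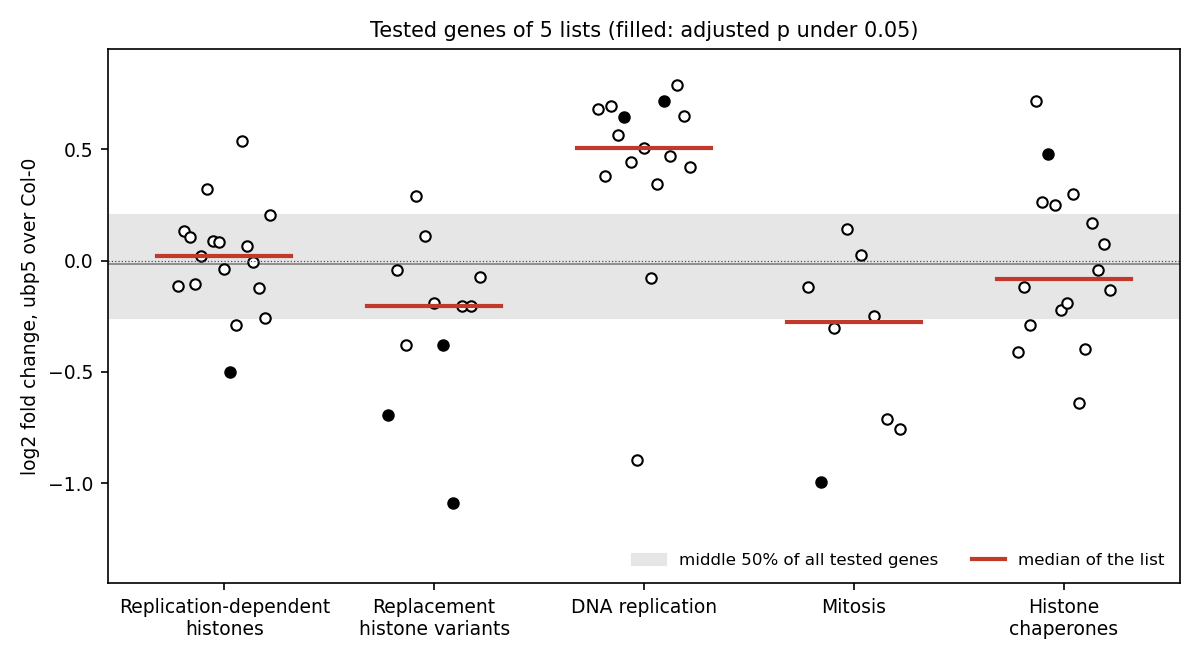
The log2 fold change of *ubp5* over Col-0 (y axis) of the tested genes of 5 lists (x axis), with filled points for genes that passed, red lines at list medians and a grey band for the middle 50% of all tested genes. The DNA replication genes centre at 0.51 above the band, the replication-dependent histones at 0.02 and the replacement variants at -0.20.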

How the data were processed

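The 8 deposited tables hold whole-number counts per gene, which the authors made from 3' RNA-seq reads: BRBseqTools 1.6 for demultiplexing and molecular tags, STAR 2.7.8a on TAIR10 with Araport11 genes, uniquely mapped reads only, sense strand, no normalization. Near-identical genes can lose reads this way. Genotypes came from the sample labels. Counts were tested here with edgeR 4.0.16 (quasi-likelihood, TMM, filterByExpr, genotype as the only term) in R 4.3.3, with Benjamini-Hochberg adjustment over 15649 genes. Each standard error is the log2 fold change over the root of its F value. Alternatives were DESeq2 1.42.0, its size factors, no filter, a mean of at least 10 counts, no organelle genes, a replicate block, each library left out, an adjusted p under 0.01 and a fold threshold. Simulated counts with 200 changed genes were used to check the code. Sequences came from the TAIR10.1 genome and its RefSeq annotation, whose names HTB3, HTB5 to HTB7, HTB10, HTR1 to HTR5, HTR8, HTR9, HTR13, H1.1 and H1.2 were added from a working list. Levels in every library are given for genes that passed, for the gene of highest mean in each subclass and for genes with at most 3 counts in a genotype, and *HTA3*, *HTA13*, *HTR13* and *H1.2* were added after their values were seen. For other lists, at most 3 genes that passed are named. Members and lists were chosen with earlier results of these data known. Figures used Python 3.11.15 and matplotlib 3.10.9. The 95% intervals come from edgeR and include the spread between replicates, the 3-count floor covers counting error only, and no columns of other samples were present.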

Additional observations from a re-analysis of the deposited data

Results flagged for a closer look

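In 122 groups of 4 libraries (each histone gene with a count and each class or list sum, by genotype), 3 single libraries lay far from the other 3 of their group. That is a smaller share than the roughly 1 in 20 that chance alone would give. *HTA10* (AT1G51060), canonical H2A, reached 59.7 CPM in *ubp5* replicate 4, against 44.7 to 46.5 CPM in the other *ubp5* libraries. *HTB9* (AT3G45980), an H2B gene, reached 219.9 CPM in Col-0 replicate 2, against 183 to 187 CPM in the other Col-0 libraries. *HTR9* (AT5G10400), an H3.1 gene, reached 58.4 CPM in *ubp5* replicate 2, against 43.7 to 45.7 CPM in the other *ubp5* libraries.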

How the results depend on the processing

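*HTA5*, *HTA12*, AT3G53730, *H1.1* and *H1.3* passed in all 14 alternative analyses that refit the test, *HTB4* in 13, *HTR5* in 8 and *HTB5* in 6, and all 8 kept their sign throughout. Leaving out 1 library at a time gave 1 to 2 higher histone genes, the lower count without *ubp5* replicate 4, and 4 to 6 lower ones. Each fit had fewer samples. Over all genes these fits gave 465 to 1008 higher and 636 to 1058 lower of 15931 to 16051 tested. With all libraries 719 were higher and 992 lower of 15649. With an adjusted p under 0.01 there were 1 higher and 3 lower histone genes, and the share over all genes is not given here. With a log2 fold change of at least 1 there were 0 higher and 1 lower, against 1.91% and 2.93% of all genes. Of the 31 tested genes that did not pass, 13 changed sign in at least 1 of these analyses. Among the most abundant of each subclass, these were *HTA10* and *HTA6* without Col-0 replicate 4 (0.0150 and 0.0539, with ranges of -0.213 to 0.0150 and -0.185 to 0.0539 over the omissions), *HTA9* without Col-0 replicate 2 and without *ubp5* replicate 1 (0.00526 and 0.01002, range -0.0868 to 0.01002) and *HTR2* without Col-0 replicate 3 (-0.0126, range -0.0126 to 0.240). Library numbers were not shown to pair the samples: the correlation of deviations between libraries of the same number was -0.09, -0.12, 0.005 and 0.03. With the replicate block 2 histone genes were higher and 4 lower, *HTB5* (adjusted p = 0.0833) and *HTR5* (adjusted p = 0.0716) no longer passing. Over all genes the block gave 524 higher and 688 lower genes, against 719 and 992 without it. The median of the replication-dependent genes lay between -0.05 and 0.11 and that of the replacement variants between -0.24 and -0.14. Depth limits *HTB7*, *HTB10* and *HTR12*, each at a mean under 5 CPM, which without the filter had adjusted p of 0.982, 0.591 and 0.526.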

Other observations

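Of 6 further histone genes outside the 43 (*HTB8*, *HTR6*, *HTR10*, *HTR11*, *HTR14* and *HTR15*), which include genes known for expression in pollen, none had enough counts to be tested. Their summed level was 2.55, 2.29, 1.41 and 4.07 CPM in *ubp5* and 2.28, 1.59, 0.376 and 2.01 CPM in Col-0, and the groups overlapped.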
